A study of Caenorhabditis elegans with 4 samples.

Results

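The homeobox genes named ceh and the basic helix-loop-helix (bHLH) genes named hlh were examined in Caenorhabditis elegans given low-dose arsenite. The members were taken by name, ceh or hlh followed by a number, and gave 64 of the 19912 genes in the table, 39 ceh genes and 25 hlh genes. One homeobox gene that the rule leaves out is not reported here. The 2 arsenite libraries came from adults of the wild-type strain N2 (var. Bristol) on agar with 100 nM arsenite, and the 2 control libraries from adults on agar with the solvent, water (0 nM). All plates carried heat-inactivated E. coli, and RNA was taken from whole animals 48 h after the last larval stage (L4). Whole adult hermaphrodites include their germline and the embryos they carry, so fewer cells of a type and less RNA per cell cannot be told apart in these libraries.

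Homeobox proteins bind DNA through a folded stretch of helices, the homeodomain, and many of them set the identity of single cells or body regions. Their classes include the ANTP class with the Hox genes, the paired-like (PRD), LIM, POU, sine oculis and CUT classes, and the TALE class of Hox partners. bHLH proteins bind DNA as pairs, and they drive muscle, neural and gland development or, with a leucine zipper, genes of metabolism. In nematodes many genes of both families act in a few cells of the embryo or the nervous system, while others are used in most cells.

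The summed gene counts were 45541614 and 50472338 in arsenite replicates 1 and 2, against 47577505 and 44263387 in control replicates 1 and 2. Counts and RPKM together give a depth of 31834460 and 35218389 reads in the arsenite libraries and of 33374810 and 30583832 in the controls. These read numbers were derived from the deposited values. The sources do not say whether replicates were separate cultures, so p-values cover no more than the scatter among these samples, possibly technical. Yolk genes, which mark the adult hermaphrodite intestine, summed to 20737 and 23349 RPKM in the arsenite libraries, against 19648 and 21664 RPKM in the controls. Of 8 sperm genes, 1 was at 0 in all libraries, and their sum was 1.26 and 0.847 RPKM with arsenite, against 1.18 and 0.871 RPKM without. RPKM, a read number scaled to transcript length and to depth, is used below for levels between genes, and normalized counts, which bring the read counts to a common library size, for the tests between groups. Sums over marker genes are in RPKM, without the scaling of the test.

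Most ceh genes were above 1 RPKM, and 13 of 25 hlh genes were below it. The median of the mean RPKM over the 4 libraries was 4.03 for the ceh genes and 0.762 for the hlh genes, beside 2.89 over all genes of the table. Above 10 RPKM were 15 ceh genes (38.5%) and 5 hlh genes (20%), beside 36.5% of all genes. Below 1 RPKM were 7 ceh genes (17.9%) and 13 hlh genes (52%), beside 39.8% of all genes. The levels have an order, but in it 27 of 38 neighbouring ceh pairs and 20 of 24 neighbouring hlh pairs had overlapping ranges over the libraries.

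**Figure D1:**
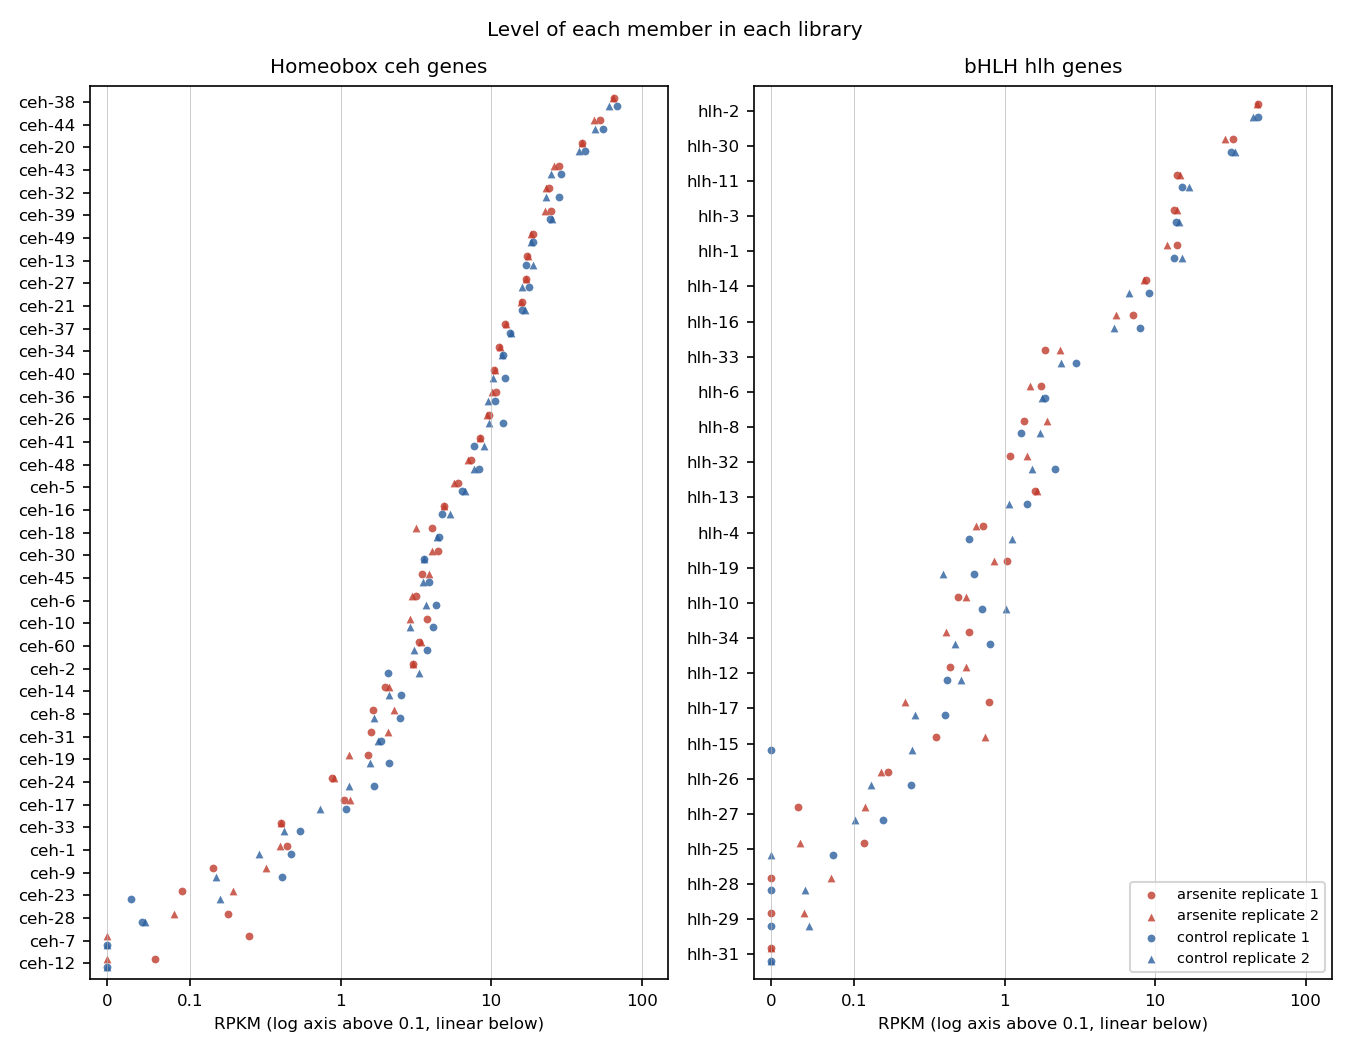
Level of each of the 39 ceh genes (left) and 25 hlh genes (right) in every library, in RPKM on an axis that is logarithmic above 0.1 and linear below, ordered by mean level. Arsenite libraries are red and drawn above the blue control libraries, with a circle for replicate 1 and a triangle for replicate 2. The 4 libraries of a gene lie close together from ceh-38 down to about 1 RPKM and spread out below it.

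The CUT class, whose proteins pair a cut domain with the homeodomain, held the most abundant row of the ceh genes. ceh-38 (chromosome II, 6951526 to 6955409, plus strand, by RefSeq on WBcel235) had 65.5 and 64.3 RPKM with arsenite, against 68.6 and 60.8 RPKM in controls. The row named ceh-44 (chromosome III, 2530620 to 2543068) had 52.9 and 48.0 RPKM with arsenite, against 55.3 and 48.9 RPKM in controls. The ranges of ceh-38 and ceh-44 did not overlap each other, and for both genes the 2 groups of libraries did.

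The ceh-44 row needs care, because it joins 3 deposited transcripts. RefSeq now gives the name ceh-44 only to the one of 4205 bases, and it gives those of 2053 and 2042 bases to cone-1, a gene at the same locus. The ceh-44 transcript had 30.4 and 27.4 RPKM in the arsenite libraries, against 31.97 and 28.02 RPKM in the controls, while the cone-1 transcripts averaged 73.5 and 73.8 RPKM over all libraries. In the Ensembl annotation the ceh-44 transcript shares 1227 of its 4206 exon bases (29.2%) with cone-1, and reads from that stretch belong to either gene. The gene row of ceh-44, a CUT gene that acts in neurons, thus covers both genes.

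A cluster of 3 more CUT genes lies on chromosome X. In the order of the chromosome, ceh-41, ceh-21 and ceh-39 follow each other, with 1138 bases between the last pair, and averaged 8.37, 16.1 and 24.4 RPKM. ceh-39, one of the X-chromosome signals that set sex by repressing xol-1, had 24.97 and 22.7 RPKM with arsenite, against 24.7 and 25.4 RPKM in controls. ceh-21 had 15.96 and 15.8 RPKM with arsenite, against 15.9 and 16.8 RPKM in controls. ceh-49 had 18.8 and 18.3 RPKM with arsenite, against 19.1 and 18.4 RPKM in controls. In none of these CUT genes did the groups separate on this scale.

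The partners of the Hox proteins followed. ceh-20, the main Pbx homologue, had 39.9 and 40.4 RPKM in arsenite libraries, against 42.3 and 38.2 RPKM in controls. ceh-60, a Pbx-like gene that controls yolk genes in the intestine, was at 3.30 and 3.44 RPKM with arsenite, against 3.75 and 3.09 RPKM in controls. Of the ANTP class, ceh-43 (a Distal-less homologue) averaged 27.2 RPKM, ceh-13 (the anterior Hox gene, like labial of Drosophila) 17.7 RPKM, ceh-27 (NK-2 type) 16.98 RPKM, and ceh-16 (engrailed, used in seam cells) 4.93 RPKM. In each of these genes the values of the groups overlapped.

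Genes of the sine oculis class ranged widely. ceh-32 averaged 24.7 RPKM, ceh-34, which sets the identity of pharyngeal neurons, 11.6 RPKM, and ceh-33, its neighbour 3617 bases away on chromosome V, 0.437 RPKM. The mean level of ceh-34 was thus 26.6 times that of ceh-33, the largest ratio among neighbouring members that both had reads. The PRD genes ceh-36 and ceh-37, both OTX homologues used in chemosensory neurons, lie 10806 bases apart on chromosome X and averaged 10.3 and 12.9 RPKM. ceh-10, which specifies the interneuron AIY and the CAN cells, averaged 3.42 RPKM. The LIM gene ceh-14, used in the thermosensory neuron AFD, averaged 2.17 RPKM. By RefSeq locations 13 of 39 ceh genes (33.3%) and 6 of 25 hlh genes (24%) are on chromosome X, beside 13.7% of all genes in the table with a location.

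Among the bHLH genes, the partner that many others pair with was highest. hlh-2, the E protein (Daughterless homologue), on chromosome I from 7190788 to 7193920, had 48.2 and 47.3 RPKM in the arsenite libraries, against 48.5 and 44.4 RPKM in the controls. hlh-30, the TFEB homologue that drives autophagy and lysosome genes, on chromosome IV from 4014795 to 4034784, had 33.1 and 29.4 RPKM with arsenite, against 31.99 and 33.8 RPKM without. hlh-11, an AP-4 homologue, had 13.9 and 14.6 RPKM with arsenite, against 15.2 and 16.9 RPKM without. Only hlh-11 of these 3 had both arsenite values below both controls on the RPKM scale, and after normalization its groups overlapped.

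The neural and muscle genes came next. hlh-3, an achaete-scute homologue of the nerve cord, averaged 13.8 RPKM, and hlh-1, the MyoD homologue of body wall muscle, 13.5 RPKM. hlh-14, a further achaete-scute homologue, averaged 8.21 RPKM, hlh-16, of the Olig type, 6.47 RPKM, and hlh-33 2.38 RPKM. hlh-8, the Twist homologue of the M mesoblast lineage, had 1.35 and 1.90 RPKM with arsenite, against 1.28 and 1.705 RPKM in controls. These values rested on 23 and 36 reads in the arsenite libraries and on 23 and 28 reads in the controls.

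The remaining tested ceh genes spanned a wide range. ceh-26, named pros-1 by RefSeq now and the homologue of Prospero, averaged 10.2 RPKM, and ceh-40, a second Pbx homologue, 10.9 RPKM. ceh-48, a CUT gene of neurons, averaged 7.6 RPKM and ceh-5 6.18 RPKM. Between 1 and 5 RPKM lay ceh-30 (3.91) and ceh-31 (1.82), BarH homologues 3097 bases apart on chromosome X. At similar levels were ceh-45 (a goosecoid homologue, 3.67), ceh-2 (an empty spiracles homologue of the pharynx, 2.86), ceh-8 (of the RAX type, 2.01) and ceh-17 (a Phox2 homologue of the ALA and SIA neurons, 1.004). The rest of the tested hlh genes averaged between 0.561 and 1.72 RPKM. They were hlh-34, hlh-10, hlh-4 (of the chemosensory neuron ADL), hlh-13, hlh-32 and hlh-6 (of the pharyngeal glands).

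At the low end, 6 ceh and 10 hlh genes had too few reads to be tested. They were ceh-1, ceh-7, ceh-9, ceh-12, ceh-23 and ceh-28, and hlh-12, hlh-15, hlh-17, hlh-19, hlh-25 to hlh-29 and hlh-31. hlh-31 had a count of 0 in all 4 libraries, where a count of 0 leaves room for up to 3 counts a library. ceh-12, the HB9 homologue of motor neurons, had 1 read, and ceh-7 had 2, all in arsenite replicate 1. The REF-1 genes hlh-25 to hlh-29, which the Notch pathway switches on in the early embryo, all averaged under 0.2 RPKM, with hlh-26 the highest at 0.171 RPKM. hlh-25 had 3 and 1 reads with arsenite, against 2 and 0 in controls, and hlh-26 had 4 and 4 reads with arsenite, against 6 and 3 in controls. At these counts a difference between the groups was not detectable.

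Genes taken as close copies were hlh-28 with hlh-29 and hlh-17 with hlh-31 and hlh-32, and their levels are uncertain as well. How alike their sequences are was not tested. The authors kept reads that mapped to a single place, so a read common to the copies would be lost, and how many were lost was not tested. The kit did not mark strand, and exons of 7 ceh and 4 hlh genes overlap exons of a protein-coding gene on the opposite strand. Among them are ceh-38 with tra-2, ceh-34 with C10G8.2, ceh-60 with ets-4 and hlh-1 with B0304.4. Reads of such pairs cannot be told apart there.

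When arsenite was compared with control, no gene of either family passed the test. edgeR's quasi-likelihood test with Benjamini-Hochberg adjustment at 0.05 was fitted to 13776 genes with enough counts, of them 33 ceh and 15 hlh genes. It called 0 ceh and 0 hlh genes, beside 0 of all genes (0%). DESeq2 called 0 members beside 0.218% of all genes, the exact test 0 beside 1.01%, and the likelihood ratio test 0 beside 1.14%. At an unadjusted p under 0.05, 3 ceh genes were lower with arsenite and 0 higher (9.09% of 33), and 0 hlh genes stood in either direction. Over all genes 7.21% reached that p, 5.05% lower and 2.16% higher.

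The intervals say how large a difference may have been missed. The 95% interval of the fold change lay within 1.5-fold in either direction for 25 of 33 ceh genes (75.8%) and for 7 of 15 hlh genes (46.7%), beside 73.4% of all genes. It lay within 2-fold for 31 ceh and 10 hlh genes. The median log2 fold change, arsenite over control, was -0.0039 over the ceh genes and -0.094 over the hlh genes, beside 0.0055 over all genes tested. The hlh median was -0.14 without arsenite replicate 1, -0.051 without arsenite replicate 2 and -0.020 without control replicate 2. With a stricter filter on low counts it was -0.047. By sign, 15 ceh genes were higher and 18 lower (54.5%), and 5 hlh genes were higher and 10 lower (66.7%), beside 48.2% lower of all genes.

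By class, the share of narrow intervals varied, and medians and signs are given as description, with no class tested. All 7 CUT genes had an interval within 1.5-fold, their estimates ran from -0.11 to 0.058 on the log2 scale, and their median was 8.8e-05. All 4 genes of the TALE and Prospero classes did so too, from -0.14 to 0.040. In the ANTP class 6 of the 10 tested genes did, with a median of 0.031. Of the PRD genes it was 4 of 6, with a median of -0.0016. The 3 LIM and POU genes and the 3 sine oculis genes were all lower by sign, with medians of -0.25 and -0.076. Of the 8 achaete-scute and related neural or gland bHLH genes tested, 3 had an interval within 1.5-fold, with a median of -0.092. Both leucine zipper genes, hlh-11 and hlh-30, and 2 of the 3 E protein, muscle and mesoderm genes did so.

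**Figure D2:**
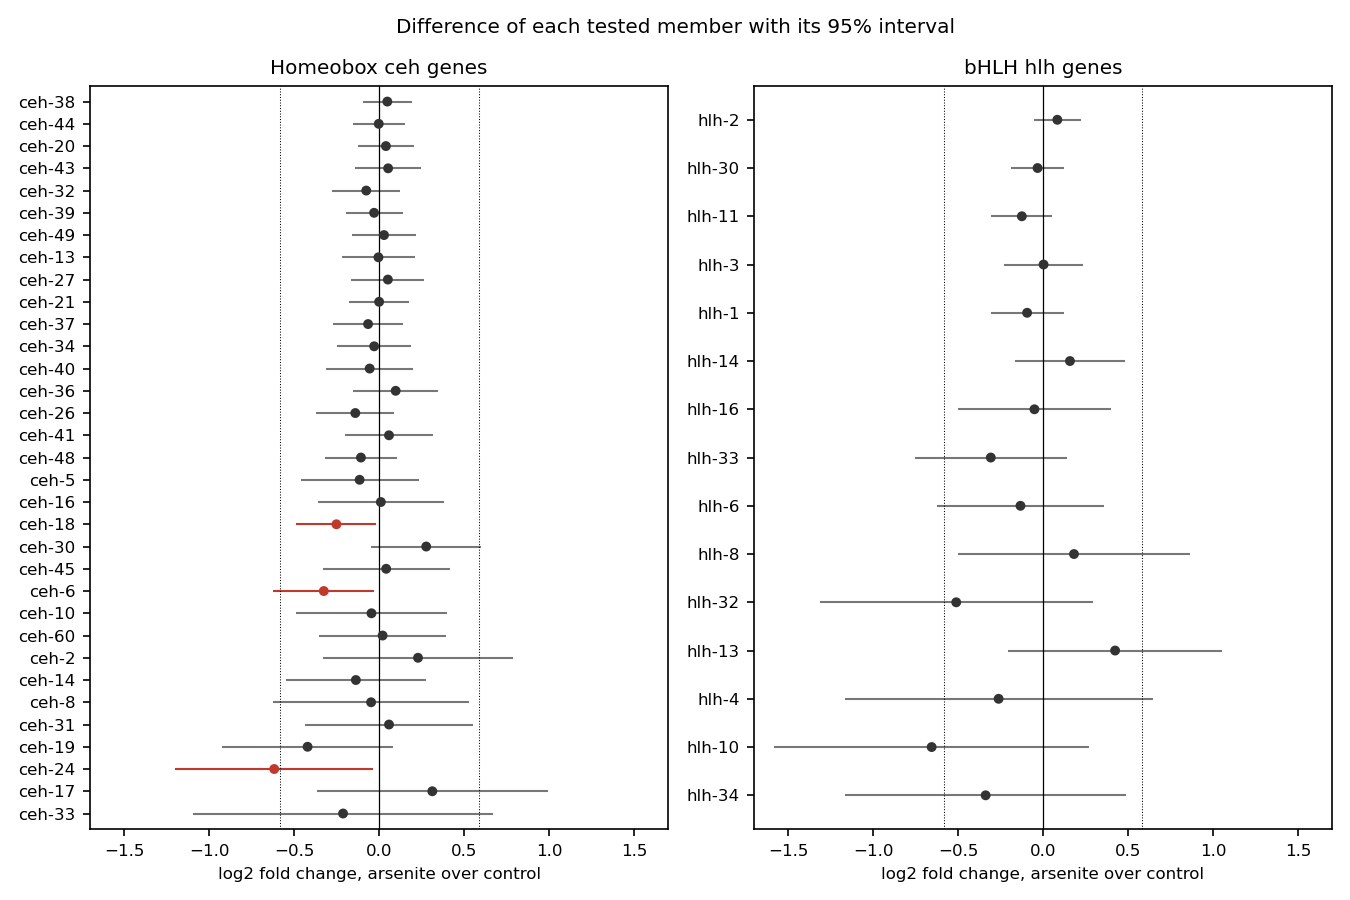
Log2 fold change, arsenite over control, of the 33 tested ceh genes (left) and 15 tested hlh genes (right), ordered by mean level from the top. Points are estimates of edgeR's quasi-likelihood test, bars their 95% intervals, dotted lines mark 1.5-fold, and red marks an unadjusted p under 0.05. Intervals are narrow for the abundant genes at the top, widen toward the bottom, and miss 0 only for ceh-18, ceh-6 and ceh-24.

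In the count of groups that do not overlap, both arsenite libraries were above both controls for 3 ceh genes (9.09%) and 2 hlh genes (13.3%), beside 17.1% of all genes. Both were below both controls for 8 ceh genes (24.2%) and 3 hlh genes (20%), beside 19.1% of all genes. The higher ones were ceh-30, ceh-36 and ceh-49 with hlh-2 and hlh-13. The lower ones were ceh-5, ceh-6, ceh-18, ceh-19, ceh-24, ceh-33, ceh-37 and ceh-48 with hlh-6, hlh-10 and hlh-32. The share of higher ceh genes was below that over all genes and the others lay nearer to it, with no test of the difference.

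Both POU genes were among the 3 ceh genes with an unadjusted p under 0.05. ceh-6 (chromosome I, 8498112 to 8502604, minus strand), a POU class III homologue needed in the excretory cell, had 167 and 161 normalized counts with arsenite, against 217 and 192 in controls. Both arsenite libraries were below both controls, with a log2 fold change of -0.33 ± 0.13 (SE; 95% interval -0.62 to -0.029; unadjusted p = 0.0346, adjusted p = 0.615 by edgeR's quasi-likelihood test). Leaving out a library at a time gave values of -0.41 to -0.23.

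ceh-18 (chromosome X, 3843367 to 3857797, minus strand), the POU gene of the gonadal sheath that helps hold oocytes in meiotic arrest, had 848 and 681 normalized counts with arsenite, against 910 and 909 in controls. The controls were nearly equal, and arsenite replicate 2 was the lowest library by a wide margin. The log2 fold change was -0.25 ± 0.11 (SE; 95% interval -0.49 to -0.016; unadjusted p = 0.0387, adjusted p = 0.647 by edgeR's quasi-likelihood test). Without arsenite replicate 2 it was -0.10, and without arsenite replicate 1 it was -0.41. Its transcripts of 2523 and 1308 bases had log2 fold changes of -0.27 and -0.16, both short of the adjusted threshold.

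ceh-24 (chromosome V, 13813231 to 13815350, plus strand), an NK-2 type gene of vulval muscles, pharyngeal muscle and sublateral neurons, was the scarcest of the 3. It had 29 and 33 reads with arsenite, against 58 and 36 in controls, or 29.9 and 31.5 normalized counts against 55.3 and 38.5. The arsenite libraries lay close together below both controls, and the controls differed more from each other than control replicate 2 did from the arsenite libraries. The log2 fold change was -0.62 ± 0.26 (SE; 95% interval -1.20 to -0.033; unadjusted p = 0.0403, adjusted p = 0.654 by edgeR's quasi-likelihood test). Without control replicate 1 it was -0.32, and without control replicate 2 it was -0.84.

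Other members of high level and known role gave narrow intervals. hlh-30 had 15750 and 14299 normalized counts with arsenite, against 14739 and 15989 in controls, and the groups overlapped. Its log2 fold change of -0.032 had a 95% interval of -0.19 to 0.13, so that a 1.5-fold difference lies outside it. Its 8 deposited transcripts, whose counts add up to the gene row, had log2 fold changes from -0.041 to -0.010. These transcripts share reads, so their values are not independent, and the gene row counts a shared read repeatedly. hlh-2 had 4364 and 4391 normalized counts with arsenite, against 4252 and 4006 in controls, so both arsenite libraries were above both controls, and its interval was -0.056 to 0.22. hlh-11 had 2492 and 2677 normalized counts with arsenite, against 2633 and 3006 in controls, and its interval was -0.30 to 0.055. hlh-1 had 1349 and 1187 normalized counts with arsenite, against 1247 and 1459 in controls, so the groups overlapped (interval -0.31 to 0.12).

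For ceh genes of high level the same held. ceh-38 had 9943 and 9992 normalized counts with arsenite, against 10096 and 9182 in controls (interval -0.095 to 0.19). ceh-20 had 1682 and 1742 normalized counts with arsenite, against 1728 and 1601 in controls (interval -0.12 to 0.20). The ceh-44 transcript of 4205 bases had 4063 and 4064 reads with arsenite, against 4487 and 3604 in controls, with a log2 fold change of -0.0058. In all 3 the arsenite libraries lay between the controls or overlapped them. The 10 most abundant ceh genes all had a log2 fold change between -0.076 and 0.053.

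Genes of low level left much wider intervals. ceh-30, which keeps the male CEM neurons alive, had the smallest p among higher members, with 150 and 141 normalized counts with arsenite, against 118 and 122 in controls (log2 fold change 0.28, interval -0.045 to 0.60). ceh-19, used in the MC neurons of the pharynx, had 60.9 and 46.8 normalized counts with arsenite, against 81.1 and 61.997 in controls (interval -0.92 to 0.080). hlh-13, a PTF1A homologue, had 28.9 and 30.6 with arsenite, against 24.8 and 19.2 in controls, and its interval of -0.20 to 1.05 still holds 2-fold. hlh-10 had the lowest value of the hlh genes, -0.66 on the log2 scale, from 8 and 10 reads with arsenite, against 12 and 16 in controls. ceh-30 was named here for its p and ceh-19, hlh-10 and hlh-13 for their values after these had been seen.

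The same families hold genes with other names, and 33 such homeobox genes were in the table, of which 32 were tested. None passed by any of the 4 tests on all libraries. By sign 27 were lower (84.4%, beside 48.2% of all genes) and 5 higher, with a median log2 fold change of -0.11. For 12 (37.5%) both arsenite libraries were below both controls, beside 19.1% of all genes. Both were above for 3 (9.38%), beside 17.1% of all genes. At an unadjusted p under 0.05, 4 were lower (12.5%, beside 5.05% of all genes) and 0 higher. unc-4, which sets the synaptic inputs of motor neurons, had 13.4 and 14.3 normalized counts with arsenite, against 27.7 and 29.9 in controls, and the groups were far apart. Its log2 fold change was -1.04 ± 0.30 (SE; adjusted p = 0.409 by edgeR's quasi-likelihood test). unc-42 and lim-4, also neuronal, had log2 fold changes of -0.28 and -0.39, and psa-3, of the TALE class, -0.26.

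Of the bHLH genes with other names 16 were tested and 0 passed by any of the 4 tests. By sign 11 were lower (68.8%, beside 48.2% of all genes) and 5 higher, and the median was -0.054. Both arsenite libraries were below both controls for 6 (37.5%), beside 19.1% of all genes, and above them for 2 (12.5%), beside 17.1%. At an unadjusted p under 0.05 stood mdl-1, a Mad-like partner of the Max proteins, and cky-1, an NPAS4-like gene. mdl-1 had 407 and 383 normalized counts with arsenite, against 473 and 479 in controls (log2 fold change -0.27, adjusted p = 0.518 by edgeR's quasi-likelihood test). cky-1 had 236 and 231 with arsenite, against 347 and 260 in controls (log2 fold change -0.38, adjusted p = 0.562 by the same test).

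**Figure D3:**
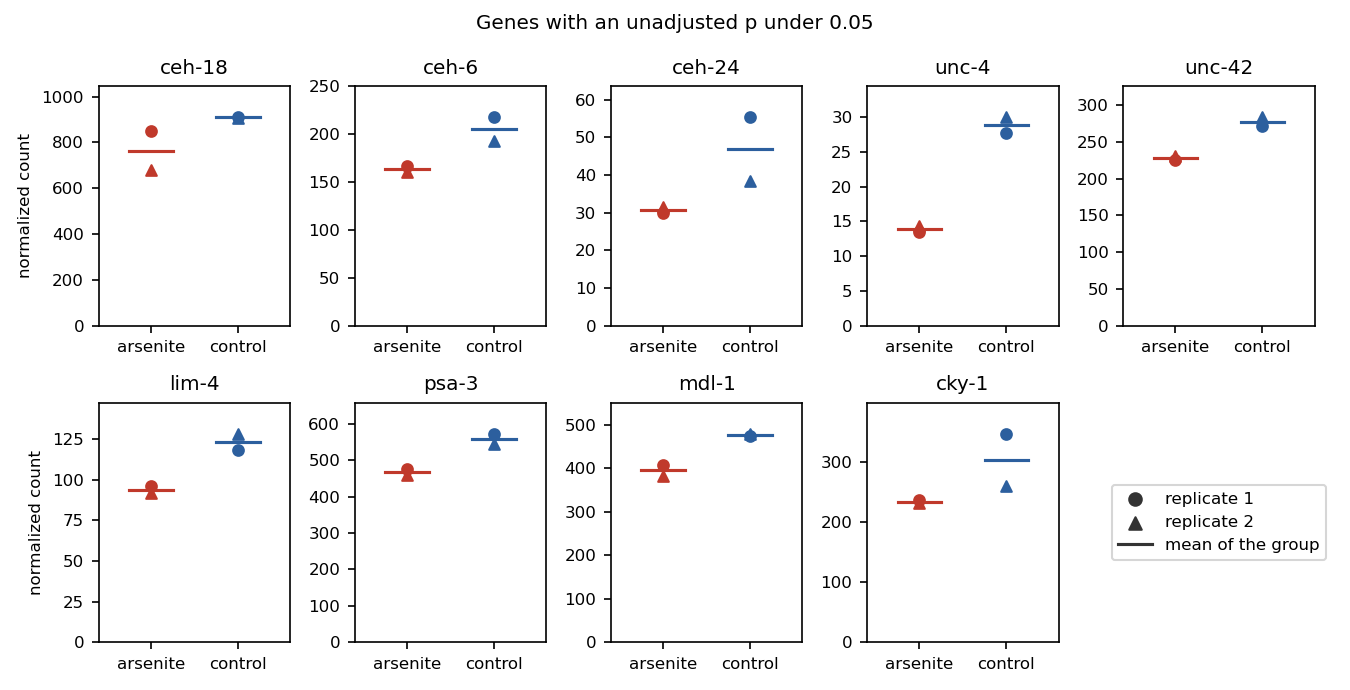
Normalized counts of the 9 homeobox and bHLH genes with an unadjusted p under 0.05, 3 members and 6 genes with other names, on axes that start at 0. Arsenite libraries are on the left and controls on the right, circles are replicate 1, triangles replicate 2, and lines the group means. In all 9 both arsenite libraries are below both controls, by the widest relative gap in unc-4.

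The marker sums of neurons, pharynx, body wall muscle and early embryo were lower in both arsenite libraries than in both controls. The sums were not tested. The 9 neuronal genes summed to 137 and 128 RPKM with arsenite, against 157 and 147 RPKM in controls, and 7 of them (77.8%) had both arsenite libraries below both controls in normalized counts, beside 19.1% of all genes. The 5 pharyngeal genes summed to 85.1 and 76.8 RPKM, against 98.0 and 97.0 RPKM in controls, with 4 of 5 below. The 6 body wall muscle genes summed to 919 and 858 RPKM, against 964 and 981 RPKM in controls, with 4 of 6 below. By the quasi-likelihood test 0 of these genes passed, and by DESeq2 and the exact and likelihood ratio tests the pharyngeal myosin myo-2 did, with a log2 fold change of -0.33. The 11 early embryo genes summed to 134 and 134 RPKM with arsenite, against 145 and 138 RPKM in controls, but did not move together. By normalized counts 4 (36.4%) were below and 1 (9.09%), sdz-28, was above, and by sign 8 were lower and 3 higher. Of them 0 had an unadjusted p under 0.05 by edgeR's quasi-likelihood test. The largest part of the sum was die-1, at 55.1 and 54.3 RPKM with arsenite, against 59.3 and 57.0 RPKM in controls. No marker of these 4 lists was at 0 in all libraries. The intestinal sums overlapped, at 3452 and 3789 RPKM with arsenite, against 3366 and 4080 RPKM in controls, and consisted mostly of asp-1 and cpr-1. By gene, 2 of the 6 intestinal markers (33.3%) were below and 0 above, with a median log2 fold change of -0.076. Those of the adult epidermis overlapped too, at 188 and 172 RPKM with arsenite, against 176 and 184 RPKM in controls. Of its 5 tested genes 2 (40%) were below and 1 (20%) above, with a median log2 fold change of -0.024.

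By median log2 fold change, the yolk and germline lists were above 0. The lists of neurons, pharynx, body wall muscle, early embryo, intestine and adult epidermis were below it. All 6 yolk genes had a log2 fold change above 0, with a median of 0.15, and 3 (50%) had both arsenite libraries above both controls. All 10 germline genes had a log2 fold change above 0, beside 7142 of 13776 over all genes, with a median of 0.073. Of these 10, 4 (40%) had both arsenite libraries above both controls, beside 17.1% of all genes. They summed to 2622 and 2660 RPKM with arsenite, against 2501 and 2687 RPKM in controls, so the sums overlapped. Whether the lower marker sums above have a part in the lower values of ceh-6, ceh-18, ceh-24 and the neuronal genes was not tested. Set against the control mean, the median log2 ratio was -0.040 and 0.0084 for the ceh genes in arsenite replicates 1 and 2, against 0.054 and -0.056 in control replicates 1 and 2. For the hlh genes it was -0.052 and -0.13 in the arsenite libraries, against 0.0096 and -0.0097 in the controls. The ceh medians of the groups overlapped. The hlh medians did not, but they rest on 15 genes, and the control values lie on either side of 0 because the ratio is taken to their own mean.

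**Figure D4:**
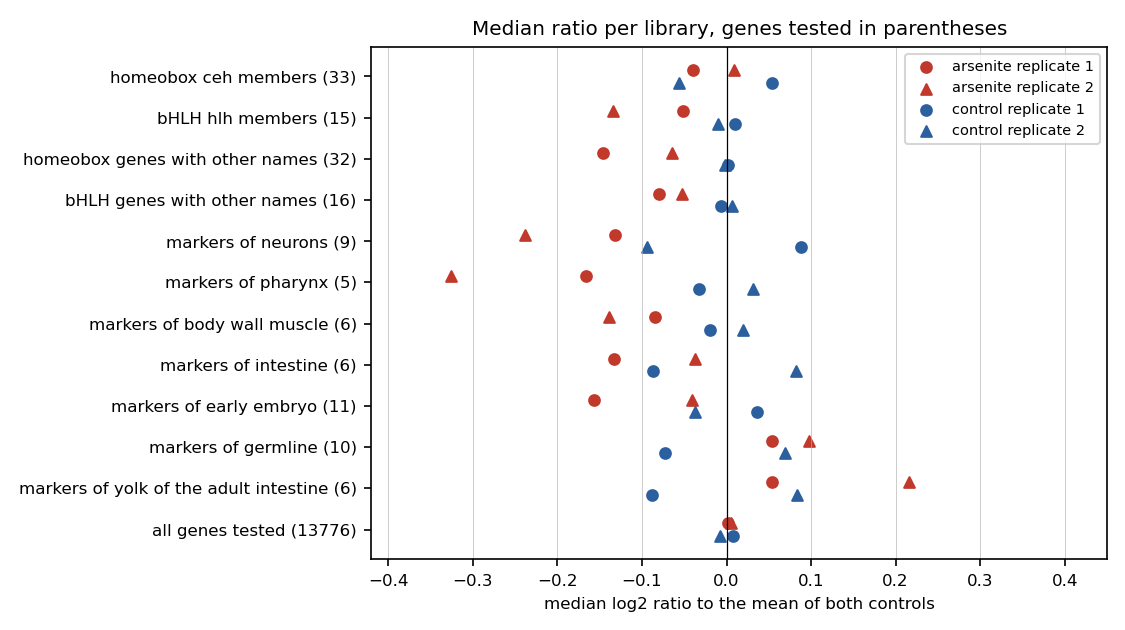
Median log2 ratio of each library to the mean of both controls, for the 33 ceh and 15 hlh genes tested, the other genes of both families, marker lists and all genes. Arsenite libraries are red and controls blue, circles are replicate 1 and triangles replicate 2. The ceh medians lie on both sides of 0 in both groups, and the neuronal and pharyngeal markers lie at -0.13 to -0.33 in the arsenite libraries.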

How the data were processed

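RNA of the 4 libraries was sequenced by the authors as single reads of 76 nucleotides from an unstranded kit. The authors aligned them (the submitters' notes name CASAVA, Bowtie and the build WBcel235, with versions not given in the sources used here), retained uniquely mapped reads, and deposited raw read counts and RPKM per transcript and gene. Each gene count is the sum over its transcripts, so a read shared by several transcripts is counted repeatedly. The deposited RPKM values divide reads by transcript length and depth, and served here for levels and for sums over marker genes, with no test on them.

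Gene counts were tested with edgeR 4.0.16 in R 4.3.3 (filterByExpr with a minimum count of 10 and total of 15, TMM, glmQLFit and glmQLFTest, prior count 0.125, Benjamini-Hochberg at 0.05 over all 13776 genes). TMM factors were 0.9993 and 0.9739 for arsenite and 1.035 and 0.9926 for control, and the biological coefficient of variation was 6.06%. Log2 ratios per library used a pseudocount of 1. Read numbers limit the precision of low genes. The scripts were tested on simulated data.

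Members and lists were chosen with earlier results of these data known. Values were given for members with an unadjusted p under 0.05, the 10 ceh and 8 hlh genes of highest level, those at 0 throughout, those with a known role, and other-named genes with an unadjusted p under 0.05. Alternatives were other tests (DESeq2 1.42.0 among them), scalings, filters, a length correction, a replicate block, the transcript table and leaving out each library. Gene locations come from RefSeq and exon overlaps from Ensembl, both on WBcel235. Sequences were not used here.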

Additional observations from a re-analysis of the deposited data

How the results depend on the processing

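No ceh or hlh gene passed the adjusted threshold in the main test or in any of the 15 alternatives run, and the smallest adjusted p of a member was 0.116 (hlh-11, without control replicate 1). Over the 29 members followed, 433 alternative values gave 50 with the other sign, in 20 genes, none of them called. Over all genes the count past the threshold was 0 by the quasi-likelihood test, 139 by the exact test, 157 by the likelihood ratio test, 30 by DESeq2 and 79 without a filter on low counts. It ranged from 2 without control replicate 2 to 193 without control replicate 1 when a library was left out, with 158 without arsenite replicate 1 and 14 without arsenite replicate 2. The cause was not tested. With the replicate number as a block it was 80, and 27 with a length correction and the block, while the correlation of same-numbered deviations was 0.0519, so the numbers do not establish pairing, and 0 members were called in either. The hlh median of -0.094 was -0.047 with a mean count of at least 50 in both groups, a filter that leaves fewer genes, and -0.14 to -0.020 with a library left out. The ceh median kept within its replicate spread under every alternative.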
